A study of Mus musculus with 15 samples.

Results

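Genes that mark or drive the exit from naive pluripotency were followed, as a set of 8, through the peak lists of H3K27ac and H3K4me1 in mouse embryonic stem cells and 2 kinds of expanded potential stem cell. The 8 genes were Otx2, Pou3f1, Fgf5, Zic2, Sall2, Sox3, Foxd3 and Grhl2, taken by name from 22350 annotated protein-coding genes. They are known as formative and primed epiblast regulators. For each gene, the window was the gene span with 30 kb on each side. Every peak and every covered base of the 6 lists in a window was counted. Peaks within 1 kb of a start site of the gene itself were called promoter peaks, those within 1 kb of a start site of another protein-coding gene were counted apart, and all others were called distal.

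Chromatin immunoprecipitation with sequencing had been done by the authors in 15 samples, with 2 samples per mark and cell state and 1 input per state. The embryonic stem cells (ESCs) were the J1 line of 129SV background, kept with serum, LIF and the inhibitors CHIR99021 and PD0325901, on feeder fibroblasts or on gelatin. Expanded potential stem cells (EPSCs) had been converted from ESCs. The first kind, D-EPSCs, grew in N2B27 with knockout serum replacement, minocycline hydrochloride, dimethindene maleate, CHIR99021 and LIF. The second, L-EPSCs, grew in DMEM/F12 with knockout serum replacement, XAV939, A-419259, SB203580, JNK inhibitor VIII, PD0325901, CHIR99021 and LIF. The study's methods have the EPSCs grown for several passages without feeders before immunoprecipitation. CHIR99021 and LIF were thus shared by all 3 states, and PD0325901, which blocks the MEK kinases, was in the ESC and L-EPSC media and not in the D-EPSC medium. The antibodies were Abcam ab4729 for H3K27ac and ab8895 for H3K4me1. Each state is represented by 1 list per mark. The differences below therefore have no replicate check, and none was tested. A peak list gives positions only, the read depth behind it is unknown, and a place without a peak is a place where none was called.

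The naive state of ESCs corresponds to the epiblast before implantation. After implantation the epiblast passes through a formative state into a primed state, in which naive factors are lost and regulators such as these gain expression or new target enhancers. H3K4me1 marks enhancers whether active or not, and also the flanks of promoters and inactive promoters, whereas H3K27ac marks active promoters and enhancers. In naive cells many regulators of later stages have CpG-rich promoters held inactive under H3K4me3 and H3K27me3, marks that were not analysed here.

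The lists covered different amounts of the genome, which bears on every value below. For H3K27ac the lists spanned 107 Mb in ESCs and 44.4 and 34.3 Mb in D-EPSCs and L-EPSCs. The H3K4me1 lists were closer in size, at 221, 187 and 173 Mb. Promoters of all 5 pluripotency markers (Pou5f1, Sox2, Nanog, Sall4 and Utf1) held H3K27ac in each state. None of 10 feeder fibroblast markers and none of 5 primitive endoderm markers held it in any state. Of 5 trophoblast markers, 1 held it in ESCs (Eomes), 0 in D-EPSCs, and another 1 in L-EPSCs (Tfap2c).

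Sequences are shown first for the places on which the results turn, in mm9. Fgf5, Pou3f1, Foxd3 and Grhl2 had H3K4me1 over the first base of the gene in both EPSCs and not in ESCs, and Zic2 had the H3K27ac gain. For Fgf5, Pou3f1, Foxd3 and Zic2, the 250 bases upstream of the first base are at chr5:98682953-98683202, chr4:124334646-124334895, chr4:99322740-99322989 and chr14:122874354-122874603, all on the plus strand, and CpG dinucleotides are in capitals.
Fgf5 upstream: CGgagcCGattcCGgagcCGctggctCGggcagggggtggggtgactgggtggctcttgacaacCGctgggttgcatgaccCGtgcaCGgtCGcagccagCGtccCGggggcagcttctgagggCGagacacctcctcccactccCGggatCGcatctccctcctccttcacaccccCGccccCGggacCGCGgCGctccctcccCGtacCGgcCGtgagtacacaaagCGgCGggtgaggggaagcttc
Pou3f1 upstream: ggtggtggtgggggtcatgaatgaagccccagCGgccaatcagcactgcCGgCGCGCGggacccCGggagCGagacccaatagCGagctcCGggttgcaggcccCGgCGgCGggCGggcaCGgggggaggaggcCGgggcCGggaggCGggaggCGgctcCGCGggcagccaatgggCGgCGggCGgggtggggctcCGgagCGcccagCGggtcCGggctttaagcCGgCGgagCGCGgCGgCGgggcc
Foxd3 upstream: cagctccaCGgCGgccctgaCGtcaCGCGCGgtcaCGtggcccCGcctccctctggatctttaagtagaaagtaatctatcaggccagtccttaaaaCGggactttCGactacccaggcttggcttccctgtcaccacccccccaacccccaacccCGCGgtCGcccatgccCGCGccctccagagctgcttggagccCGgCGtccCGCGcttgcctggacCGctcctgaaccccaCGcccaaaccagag
Zic2 upstream: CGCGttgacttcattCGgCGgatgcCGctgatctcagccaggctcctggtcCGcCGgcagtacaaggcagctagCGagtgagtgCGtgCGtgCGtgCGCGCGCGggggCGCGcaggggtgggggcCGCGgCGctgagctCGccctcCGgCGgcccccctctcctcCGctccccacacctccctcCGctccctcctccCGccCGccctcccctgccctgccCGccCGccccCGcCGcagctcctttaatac

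These 4 stretches held 24, 33, 21 and 31 CpG dinucleotides, in the order shown. Over the 1 kb around the first base, 6 of the 8 genes were CpG-rich, by a GC content of at least 55% and a ratio of observed to expected CpG of at least 0.6, against 38.5% of all genes. Pou3f1 stood highest, with a GC content of 78.1% and a ratio of 0.958, at percentile 96.1 of all genes. Zic2 followed with a ratio of 0.923, then Sox3 with 0.830, Foxd3 with 0.819, Grhl2 with 0.757 and Fgf5 with 0.738. Otx2 and Sall2 were the exceptions, with ratios of 0.520 and 0.336 at the 5′ ends of the annotated genes.

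A further 3 distal H3K27ac regions are shown by the central 300 bases of each, on the plus strand. The first, chr14:49273940-49274239, is from the widest distal region of all 8 windows, 7351 bp just beyond the 3′ end of Otx2. The second, chr14:49249811-49250110, is from the widest region with H3K27ac in ESCs and neither EPSC. The third, chr15:37174650-37174949, is from the widest region with H3K27ac in an EPSC and not in ESCs, in an intron of Grhl2. Capitals mark TAATCC or its reverse complement, the core that bicoid-type homeodomains such as that of Otx2 bind.
Otx2 region of all 3 states: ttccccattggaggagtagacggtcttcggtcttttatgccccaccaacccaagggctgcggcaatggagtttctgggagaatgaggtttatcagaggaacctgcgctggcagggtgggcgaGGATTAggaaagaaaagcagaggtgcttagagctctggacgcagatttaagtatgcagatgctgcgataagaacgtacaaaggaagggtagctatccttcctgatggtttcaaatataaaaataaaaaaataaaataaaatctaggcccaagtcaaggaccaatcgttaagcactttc
Otx2 region of ESCs only: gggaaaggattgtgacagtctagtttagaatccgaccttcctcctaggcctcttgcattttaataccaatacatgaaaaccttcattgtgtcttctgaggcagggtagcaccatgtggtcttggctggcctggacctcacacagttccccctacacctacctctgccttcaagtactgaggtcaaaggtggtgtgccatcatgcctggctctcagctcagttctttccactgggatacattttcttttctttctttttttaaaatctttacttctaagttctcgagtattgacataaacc
Grhl2 region of D-EPSCs only: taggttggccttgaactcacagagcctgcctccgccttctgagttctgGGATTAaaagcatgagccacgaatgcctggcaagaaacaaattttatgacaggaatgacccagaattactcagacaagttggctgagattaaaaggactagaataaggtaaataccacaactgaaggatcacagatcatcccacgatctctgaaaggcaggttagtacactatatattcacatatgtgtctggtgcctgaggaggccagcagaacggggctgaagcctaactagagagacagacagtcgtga

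TAATCC was found on either strand in the centre of 7 of the 27 distal H3K27ac regions of the windows (25.9%), against 13.6% of all 59465 distal H3K27ac regions. Of these 7 regions, 3 were at Otx2, 3 at Grhl2 and 1 at Foxd3. The letters GGATTA also stand in the consensus of the B1 repeat, a common short interspersed element of the mouse genome, and repeats were not masked. The octamer ATGCAAAT, read by POU factors such as Pou3f1, was in 1 of 27 (3.70%, against 1.67%), upstream of Sall2. TGTTTAC, a forkhead motif, was in 1 of 27 (3.70%, against 4.99%), upstream of Otx2, and AACCGGTT, a grainyhead motif, was in none, against 0.0891% of all. A match of letters is not a bound site. GC content was alike, with a median of 46.3% in these regions and 47.0% in all.

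The first comparison asked how much H3K27ac each gene carried in the 3 states. Zic2 was the 1 gene of the 8 with more H3K27ac in both EPSCs than in ESCs. Otx2, Sall2, Foxd3 and Grhl2 had less in both, and each had less in L-EPSCs than in D-EPSCs. D-EPSCs had from 0.603 (Grhl2) to 0.928 (Sall2) times the ESC bases, and L-EPSCs from 0 (Grhl2) to 0.587 (Sall2) times. The order of the states depended on the setting at each of these. When each list was cut to equally many of its widest peaks, Grhl2 had 2.22 and 3.14 kb in ESCs and D-EPSCs and Sall2 9.16 and 9.19 kb, and with 10 kb on each side of the gene Sall2 had 4.46 and 4.83 kb. Lists cut to equally many covered bases, which keeps 3725 ESC peaks, gave 7.35, 11.7 and 4.99 kb at Otx2 in ESCs, D-EPSCs and L-EPSCs. In the same order, Sall2 then had 0, 8.40 and 6.01 kb, Foxd3 0, 7.91 and 5.94 kb, and Grhl2 0, 3.14 and 0 kb. Fgf5 and Sox3 had no H3K27ac peak in any list, and Pou3f1 had 1 small peak in ESCs. Over the 8 windows together, H3K27ac covered 47.4 kb in ESCs and 47.7 and 22.7 kb in D-EPSCs and L-EPSCs, in 32, 26 and 14 peaks.

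**Figure D1:**
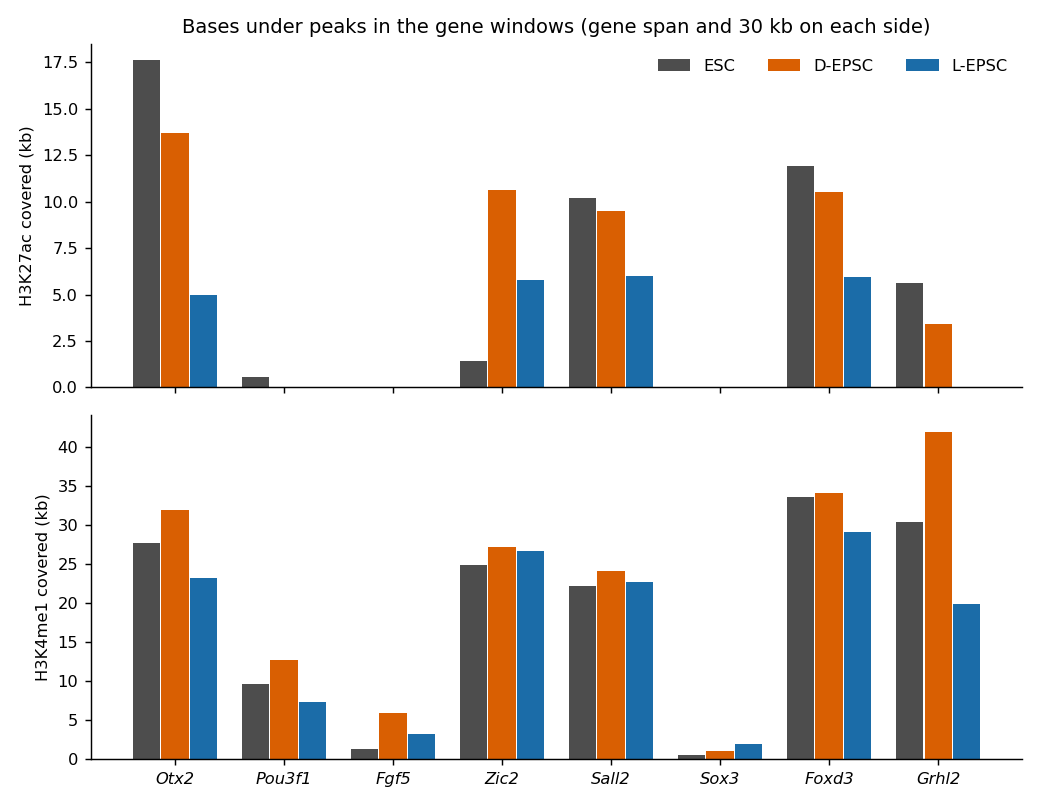
Bases under peaks (kb) in the window of each of the 8 genes, H3K27ac above and H3K4me1 below, with 1 bar per cell state and no error bars because there is 1 list per state. For H3K27ac the ESC bar is the tallest at Otx2, Sall2, Foxd3 and Grhl2 and the shortest of the 3 at Zic2. For H3K4me1 the D-EPSC bar is the tallest at every gene but Sox3, where L-EPSC is tallest.

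Zic2 encodes a zinc finger factor that binds enhancers in primed cells. Its gene lies at chr14:122874604-122879074 on the plus strand. H3K27ac covered 1.45 kb of its window in ESCs and 10.6 and 5.80 kb in D-EPSCs and L-EPSCs. The ESC value was the lowest of the 3, and the log2 ratio to ESCs, with 1 kb added to each value, was 2.25 and 1.47 in D-EPSCs and L-EPSCs. Among all genes tested these ratios stood at percentiles 99.9 and 99.5. A gene was tested where either state of the pair had at least 1 kb covered.

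The Zic2 promoter itself carried part of this. In ESCs a peak of 374 bp lay from 0.587 to 0.214 kb upstream of the first base and did not reach it. In D-EPSCs a peak of 5000 bp (chr14:122871468-122876467) ran from 3.14 kb upstream to 1.86 kb downstream, and in L-EPSCs a peak of 1469 bp ran from 0.956 kb upstream to 0.512 kb downstream. The first base was thus under H3K27ac in each EPSC list but not in that of ESCs.

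The rest of the Zic2 difference lay between Zic2 and its neighbour Zic5, a zinc finger gene of the same family whose start site is in the same window. At chr14:122865724-122869010, from 8.88 to 5.59 kb upstream of Zic2, H3K27ac covered 3287 and 1991 bp in D-EPSCs and L-EPSCs, and ESCs had no peak there. H3K4me1 lay at that place in all 3 states. At chr14:122862677-122865047, over an exon of Zic5, H3K27ac covered 756 bp in ESCs and 2326 and 2336 bp in D-EPSCs and L-EPSCs. The 1 distal H3K27ac peak of ESCs in this window, 316 bp at chr14:122852666-122852981, had no counterpart in either EPSC.

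Leaving out peaks at start sites of neighbouring genes, the Zic2 window held 0.690, 5.00 and 3.46 kb in ESCs, D-EPSCs and L-EPSCs. At chr14:122865724-122869010 the D-EPSC peak of 3287 bp came within 1 kb of a neighbouring start site and was left out. The L-EPSC peak of 1991 bp there did not and was kept, so the D-EPSC and L-EPSC values do not cover like places. The order of the states depended on the window. With 50 kb on each side the values were 8.18, 14.2 and 9.26 kb, and with 100 kb they were 34.1, 23.0 and 17.1 kb, so that ESCs then had the most.

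**Figure D2:**
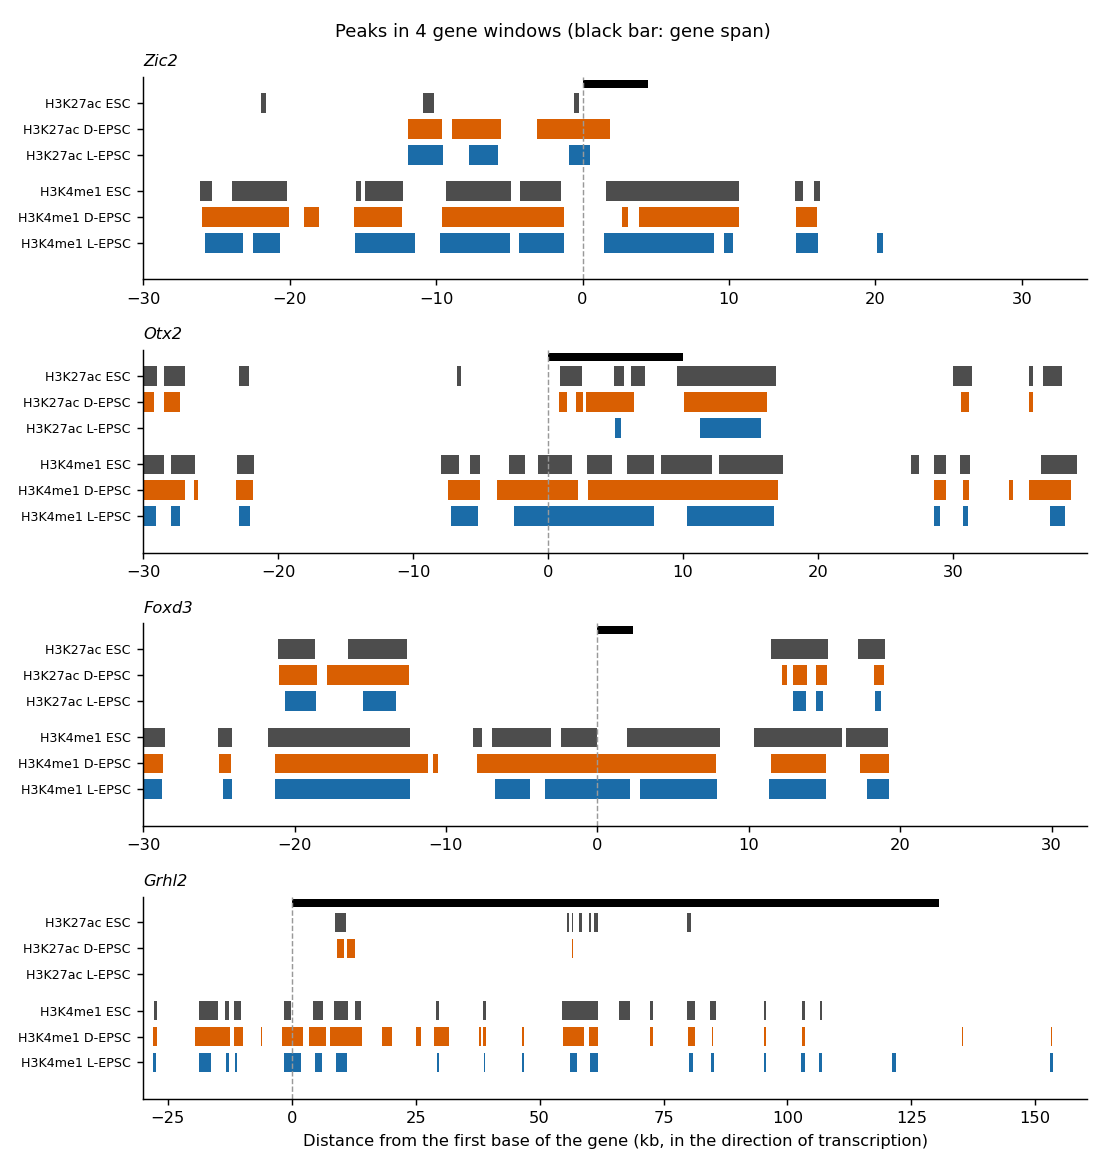
Peaks of each list at Zic2, Otx2, Foxd3 and Grhl2 against the distance from the first base (kb, in the direction of transcription), with the gene span as a black bar and a dashed line at the first base. At Zic2 the D-EPSC and L-EPSC tracks of H3K27ac hold 3 blocks at or upstream of the start that ESCs hold as short peaks or not at all, while at Grhl2 the L-EPSC track of H3K27ac is empty.

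Otx2, a homeodomain factor that brings the enhancers of the formative state into use, lies at chr14:49277354-49287319 on the minus strand. It had the most H3K27ac of the 8 genes in ESCs and in D-EPSCs. H3K27ac covered 17.6 kb of its window in ESCs and 13.7 and 4.99 kb in D-EPSCs and L-EPSCs, in 11, 8 and 2 peaks. The log2 ratio to ESCs was -0.35 in D-EPSCs, at percentile 79.5 of all genes, and -1.64 in L-EPSCs, at percentile 41.7. L-EPSCs held 0.365 times the bases of D-EPSCs, which put Otx2 at percentile 9.94 for that pair.

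The widest Otx2 regions were present in every state. The one at chr14:49270415-49277765, which starts at the 3′ end of the gene and runs away from it, was covered over 7351 bp in ESCs and 6166 and 4516 bp in D-EPSCs and L-EPSCs. A region about as wide at chr14:49316287-49322335, which begins 29.0 kb upstream of the first base and runs past the window, had 5448, 5820 and 2261 bp, of which the L-EPSC part lay outside the window. Promoter peaks numbered 3, 3 and 1 over the 7 annotated start sites, and the widest was 1633 bp in ESCs and 3558 and 469 bp in D-EPSCs and L-EPSCs. Of the 8 distal regions, ESCs held all, and 2 were shared by all 3 states. D-EPSCs held 3 more of them and L-EPSCs none of the rest. The widest that both EPSCs lacked, chr14:49249252-49250670, was 1419 bp wide, lay 36.6 kb downstream of the first base outside protein-coding genes, and kept H3K4me1 in all 3 states.

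Foxd3, a forkhead factor needed in the epiblast for the naive enhancers to be silenced and the later ones primed, lies at chr4:99322990-99325362 on the plus strand. H3K27ac covered 11.9 kb in ESCs and 10.5 and 5.94 kb in D-EPSCs and L-EPSCs, and none of it lay within 1 kb of the start site. All of it sat in 4 distal regions, a pair on each side of the gene, and every state held all 4. The widest, chr4:99305160-99310531, beginning 12.5 kb upstream, was wider in D-EPSCs (5372 bp) than in ESCs (3882 bp) or L-EPSCs (2173 bp). The pair downstream went the other way, with 3743, 1964 and 1280 bp at chr4:99334457-99338199 and 1772, 665 and 413 bp at chr4:99340233-99342004 in ESCs, D-EPSCs and L-EPSCs.

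Sall2, a spalt-type zinc finger gene expressed in epiblast and neural cells, lies at chr14:52930847-52948437 on the minus strand. H3K27ac covered 10.2 kb in ESCs and 9.50 and 6.01 kb in D-EPSCs and L-EPSCs. Of its distal regions, 3 were held by every state, the widest (3597, 3010 and 2585 bp) over Tox4, a neighbouring gene. The promoter peaks differed in place. ESCs had a peak of 601 bp at an internal start site in an intron (chr14:52936563-52937163), D-EPSCs had one of 783 bp beginning 0.285 kb upstream of the first base (chr14:52948722-52949504), and L-EPSCs had neither. A region 1.56 kb upstream, just outside the promoter limit, was covered over 1523, 1781 and 1581 bp, nearly the same in each state.

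Grhl2, a grainyhead factor that acts at epithelial enhancers when naive cells become primed, has the longest gene of the 8, at chr15:37162791-37293324 on the plus strand. H3K27ac covered 5.62 kb of its window in ESCs and 3.39 kb in D-EPSCs, and L-EPSCs had no H3K27ac peak there. The log2 ratio of L-EPSCs to ESCs was -2.73, at percentile 8.49 of all genes, and that of L-EPSCs to D-EPSCs was -2.13, at percentile 1.16. No H3K27ac peak lay at a start site of the gene in any state. In ESCs the mark formed 7 peaks inside the gene, the widest of 2220 bp at chr15:37171561-37173780 in an intron, where D-EPSCs had 1578 bp. Next to it, at chr15:37174017-37175582, D-EPSCs alone had a peak of 1566 bp.

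Pou3f1 (also called Oct6), a POU factor of the formative epiblast, lies at chr4:124334896-124337899 on the plus strand. Its only H3K27ac was a peak of 586 bp in ESCs, 16.8 kb downstream of the first base (chr4:124351670-124352255). Fgf5, the secreted growth factor most used as a marker of the epiblast after implantation, lies at chr5:98683203-98706049 on the plus strand. Sox3, a relative of Sox2 expressed in primed epiblast and neural progenitors, lies at chrX:58144545-58146605 on the minus strand. Neither Fgf5 nor Sox3 had an H3K27ac peak in its window in any of the 3 states.

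The 8 genes were then set beside all genes. For H3K27ac, 5 genes (Otx2, Zic2, Sall2, Foxd3 and Grhl2) had at least 1 kb in either state of each pair. In D-EPSCs, 0 of the 5 had at most 0.5 times the ESC bases, against 62.1% of all genes tested, and 1, Zic2, had at least 2 times, against 4.41%. In L-EPSCs, 3 of the 5 (Otx2, Foxd3 and Grhl2) had at most 0.5 times, against 80.2%, with Foxd3 at that limit, and 1, Zic2, had at least 2 times, against 1.76%. The median log2 ratio was -0.16 over the 5 and -1.06 over all genes in D-EPSCs, and -0.89 against -1.46 in L-EPSCs. The 5 pluripotency markers had medians of -0.79 and -0.82, also above those of all genes. The median of the 5 regulators was above that of all genes in both EPSCs, although Otx2 and Grhl2 were below it in L-EPSCs.

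Between the EPSCs all 5 genes lay below the median of all genes. L-EPSCs had fewer H3K27ac bases than D-EPSCs at 5 of 5, as at 77.1% of all genes, and 2 of the 5 (Otx2 and Grhl2) had at most 0.5 times, against 32.2%. The median log2 ratio was -0.77 over the 5 and -0.42 over all genes. These ratios depend on the size of the lists. When each list was cut to its widest peaks until all 3 lists of a mark covered equally many bases, the medians over ESCs became 3.16 and 2.78 in D-EPSCs and L-EPSCs, and those of all genes 1.19 and 1.18.

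**Figure D3:**
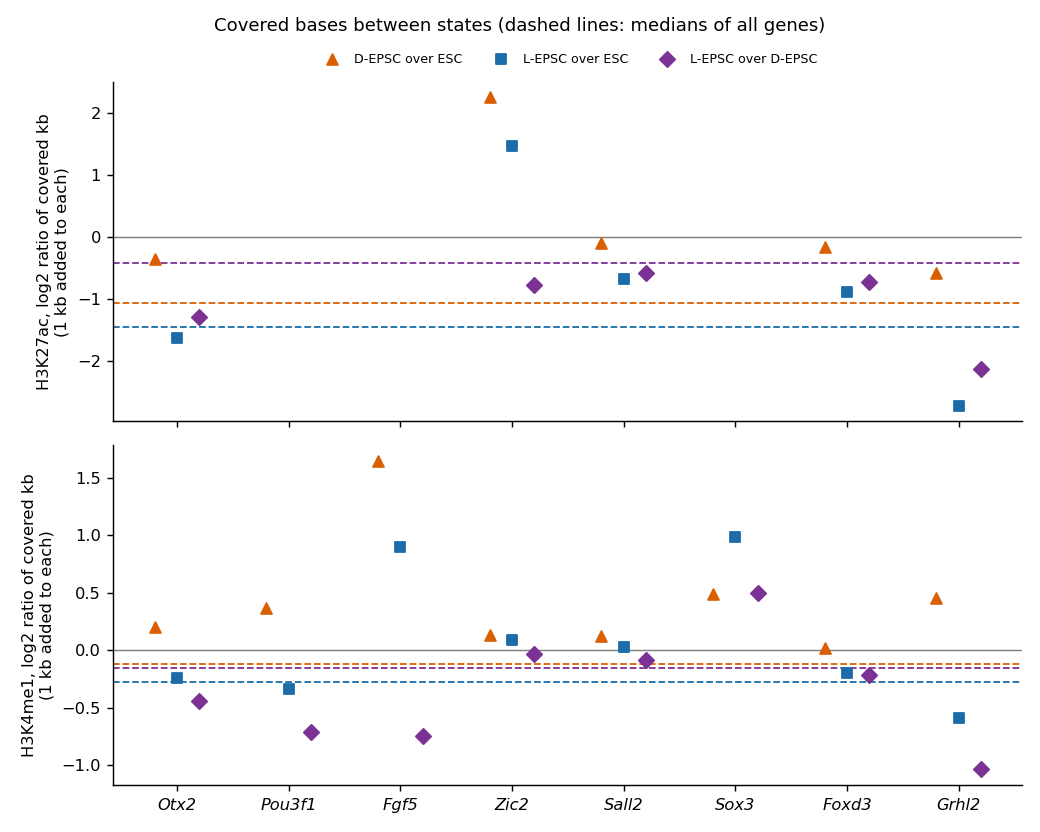
Log2 ratio of covered kb between states, with 1 kb added to each value, for each gene with at least 1 kb in either state of the pair, H3K27ac above and H3K4me1 below. Dashed lines are the medians of all genes tested in the same colour as the pair. For H3K27ac over ESC, the D-EPSC points of all 5 genes lie above their dashed line and Zic2 is the only gene above 0, while Grhl2 and Otx2 lie lowest for L-EPSC over ESC.

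H3K4me1 gave another picture. Each of the 8 genes had H3K4me1 in every list, and D-EPSCs covered more bases than ESCs at 8 of 8 genes, whereas 62.1% of all genes tested had fewer. The count of 8 depended on the window. D-EPSCs had fewer bases at 1 gene with 10 kb on each side (Zic2), at 3 with 50 kb (Pou3f1, Sall2 and Foxd3) and at 4 with 100 kb (Otx2, Pou3f1, Zic2 and Foxd3), and at 1 (Zic2) without peaks at neighbouring start sites. That last count depends in part on how peaks were joined. A D-EPSC peak of 8322 bp upstream of Zic2 was left out whole. ESCs had peaks of 4496 and 2761 bp there, and only the wider was left out. Over the windows together H3K4me1 covered 150 kb in ESCs and 179 and 134 kb in D-EPSCs and L-EPSCs. The median log2 ratio to ESCs was 0.29 over the 8 genes and -0.12 over all genes in D-EPSCs, and -0.08 against -0.28 in L-EPSCs. The median in D-EPSCs was 0.36 with 10 kb, 0.07 with 50 kb and 0.01 with 100 kb on each side.

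The 2 genes with the least H3K4me1 in ESCs had the largest ratios to ESCs, and a low ESC value raises such a ratio. In kb, Grhl2 differed most, with 30.3 kb in ESCs and 41.9 and 19.9 kb in D-EPSCs and L-EPSCs. Fgf5 had 1.22 kb in ESCs and 5.94 and 3.13 kb in D-EPSCs and L-EPSCs, with log2 ratios to ESCs of 1.65 and 0.90 at percentiles 99.0 and 92.9. Sox3 had 0.448, 1.03 and 1.88 kb, with ratios of 0.49 and 0.99 at percentiles 86.4 and 93.8. These were the 2 of 8 genes with at least 2 times the ESC bases, in D-EPSCs (8.20% of all genes) and likewise in L-EPSCs (9.05%). Sox3 was below 1 kb in ESCs and was tested only because its EPSC values reached 1 kb. A value of 1 kb is already past 2 times 0.448 kb, so the filter fixed its place in this count. With peaks of at least 500 bp, Sox3 had 0 and 0.653 kb in ESCs and D-EPSCs and was not tested there. The count in D-EPSCs was then 1 of 7, beside 8.97% of all genes. None of the 8 had at most 0.5 times the ESC bases in D-EPSCs (4.03% of all genes) or in L-EPSCs (8.29%).

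The other 6 genes had broad H3K4me1 in every state. Grhl2 had 30.3 kb in ESCs and 41.9 and 19.9 kb in D-EPSCs and L-EPSCs, and it was the 1 gene where L-EPSCs had at most 0.5 times the D-EPSC bases, against 2.56% of all genes. Pou3f1 had 9.55, 12.7 and 7.35 kb, and Otx2 had 27.6, 31.9 and 23.2 kb. At these 3 genes D-EPSCs were highest and L-EPSCs lowest. Grhl2 kept that order with 10, 50 and 100 kb on each side. With 10 kb ESCs were lowest at Pou3f1 (3.22, 6.80 and 4.17 kb) and at Otx2 (18.1, 22.4 and 18.8 kb). With 50 kb ESCs were highest at Pou3f1 (32.7, 32.3 and 22.9 kb). Foxd3 had 33.5, 34.0 and 29.1 kb, Zic2 had 24.8, 27.2 and 26.6 kb, and Sall2 had 22.1, 24.1 and 22.6 kb, so that the log2 ratios to ESCs were at most 0.13 for Zic2 and 0.12 for Sall2. Zic2, which had the largest H3K27ac ratios, thus had almost equal H3K4me1.

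The promoter and distal peaks were counted apart. Promoter H3K27ac was present at 3 of the 8 genes in ESCs and 3 in D-EPSCs (Otx2, Zic2 and Sall2) and at 2 in L-EPSCs (Otx2 and Zic2). These shares stood beside 37.8%, 37.1% and 30.5% of all genes. Promoter H3K4me1 was present at 6, 7 and 7 of the 8, beside 61.1%, 69.0% and 70.0% of all genes. Zic2 lacked it in every state, and Sox3 lacked it in ESCs.

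The position of H3K4me1 at the start sites differed more than its presence. The first base of the gene was under H3K4me1 in 2 of the 8 genes in ESCs (Otx2 and Sall2), against 11.4% of all genes. It was covered in 6 in D-EPSCs, against 26.2%, and in 7 in L-EPSCs, against 31.8%. A set of 4 genes (Pou3f1, Fgf5, Foxd3 and Grhl2) had it covered in both EPSCs and not in ESCs, against 14.6% of all genes, and Sox3 had it covered in L-EPSCs only. Zic2 had it uncovered in each state.

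At these 4 genes ESCs had H3K4me1 on either side of the start with a gap over it. At Pou3f1 the nearest ESC peaks ended 875 bp upstream and began 1548 bp downstream, and 1 peak of 3863 bp in D-EPSCs and another of 3727 bp in L-EPSCs spanned the gap. At Fgf5 the ESC peaks lay 321 bp upstream and 1478 bp downstream, and the peaks over the start were 4730 and 2124 bp in D-EPSCs and L-EPSCs. At Grhl2 the distances were 119 and 4374 bp, and the peaks 4236 and 3433 bp. At Foxd3 the ESC peak ended only 10 bp before the first base and the next began 1934 bp after it, while D-EPSCs had 1 peak of 15825 bp and L-EPSCs 1 of 5649 bp. Counting H3K4me1 within 100 bp of the first base therefore adds Foxd3 to ESCs, giving 3 of 8, against 13.4% of all genes. It also takes Foxd3 out of the set of 4.

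At Sox3 the nearest ESC peak ended 4689 bp upstream, a D-EPSC peak of 653 bp ended 676 bp upstream, and an L-EPSC peak of 1876 bp covered the start. Zic2 kept a gap in all 3 states, between peaks 1495 bp upstream and 1615 bp downstream in ESCs, 1242 and 2724 bp in D-EPSCs and 1287 and 1435 bp in L-EPSCs. That gap is where H3K27ac lay. Otx2 and Sall2, the 2 genes whose start is not CpG-rich, were covered in every state.

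**Figure D4:**
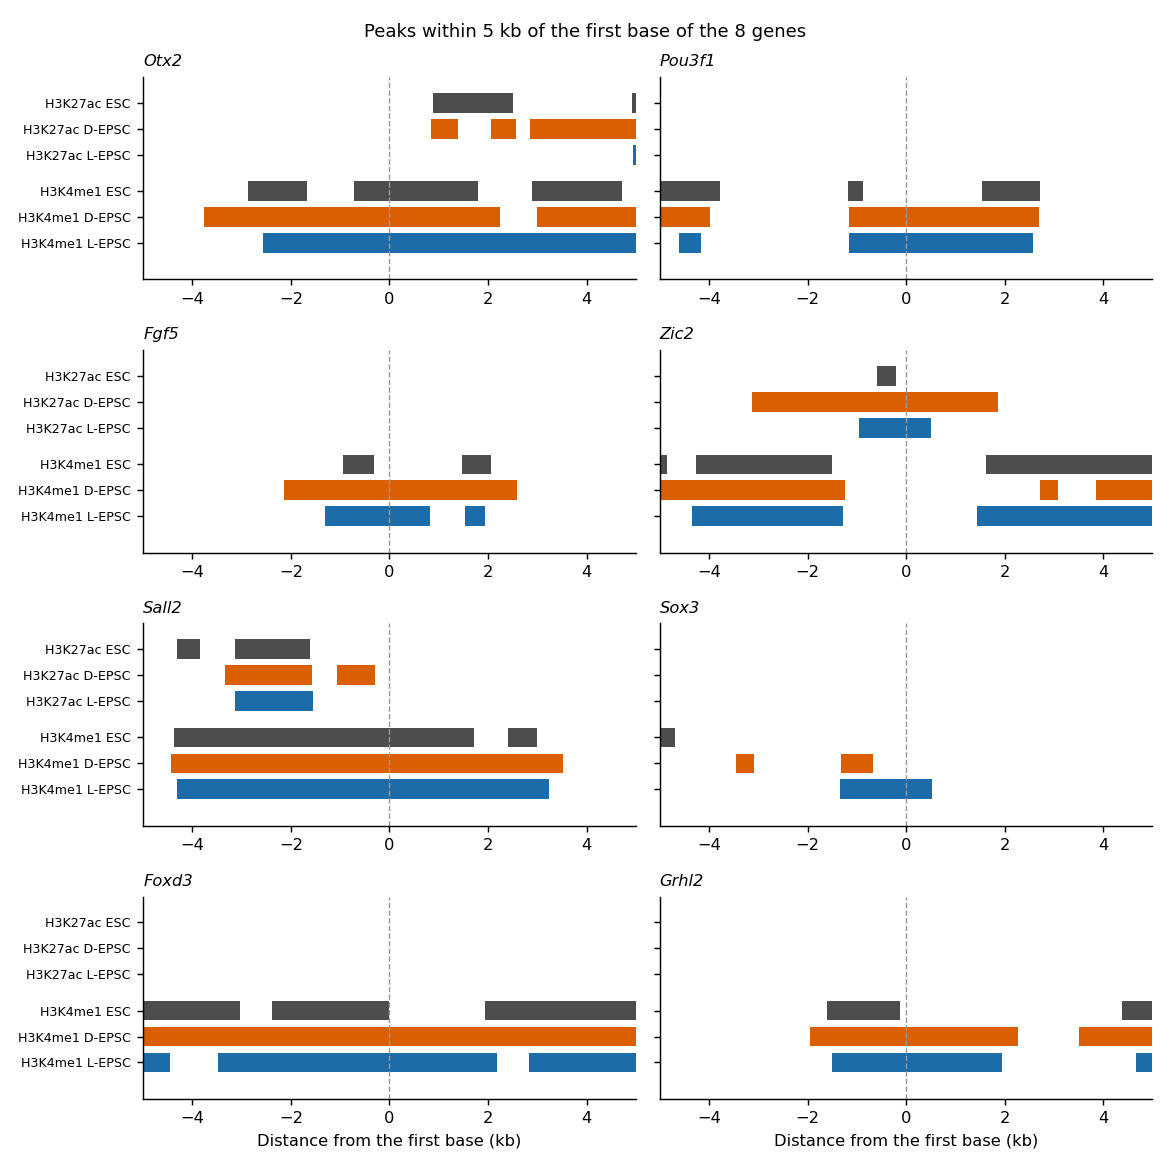
Peaks of the 6 lists within 5 kb of the first base (dashed line) of each of the 8 genes, as distance in kb in the direction of transcription. The ESC track of H3K4me1 is open over the dashed line at Pou3f1, Fgf5, Foxd3 and Grhl2, where the D-EPSC and L-EPSC tracks run across it, and at Zic2 the line is crossed by H3K27ac of D-EPSCs and L-EPSCs instead.

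Start sites of like composition were used as a nearer background. Of the 8 genes, 5 (Pou3f1, Fgf5, Sox3, Foxd3 and Grhl2) had a CpG-rich start without H3K27ac within 1 kb in any state, and 4 of these 5 had the first base covered in both EPSCs and not in ESCs. Of the 2532 genes with such a start, 42.6% did so. Coverage of the first base in that class was 8.02% in ESCs and 53.6% and 64.1% in D-EPSCs and L-EPSCs. Of the 3941 genes with a CpG-rich start and H3K27ac in every state, to which Zic2 belongs, 4.11% were covered in both EPSCs and not in ESCs. The pattern at the 4 genes was therefore a common one for genes with starts of this kind.

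The distal peaks differed by state in number and in fate. H3K27ac had 25 distal peaks in the windows in ESCs and 18 and 10 in D-EPSCs and L-EPSCs, and H3K4me1 had 57, 50 and 49. Fewer distal H3K4me1 peaks need not mean fewer marked places, because a wide promoter peak can take in distal ones. At Foxd3 the D-EPSC promoter peak of 15825 bp overlapped ESC distal peaks of 540, 3927 and 6185 bp. All H3K4me1 peaks of the windows covered 150 kb in ESCs and 179 kb in D-EPSCs. Joined over the states, the distal H3K27ac peaks made 27 regions. Of these, 9 (33.3%) were present in all 3 states, against 16.1% of all distal regions, and 11 (40.7%) in ESCs only, against 59.4%. A further 5 (18.5%) were shared by ESCs and D-EPSCs, against 9.89%, and 2 (7.41%) were in D-EPSCs only, against 5.70%. No region was in L-EPSCs without the other states, where the share over all distal regions was 3.01%. Regions that ran past a window were counted whole. At 1 of the 9 regions of all 3 states, the one upstream of Otx2, the L-EPSC part lay outside the window. These numbers depend on the length of the lists. Cut to equally many of the widest peaks, the H3K27ac lists had 13 distal peaks in ESCs and 14 and 10 in D-EPSCs and L-EPSCs, with 1 region in ESCs only. Cut to equally many bases, 0 regions were in ESCs only and 6 in both EPSCs without ESCs.

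The regions shared with EPSCs were the wide ones, as they were over the genome. Of the 25 ESC regions, D-EPSCs also held 14, against 29.0% of all 53343 distal ESC regions, and the median ESC width was 2196 bp for those shared and 586 bp for those not, beside 2012 and 668 bp over the genome. L-EPSCs held 9 of the 25, against 22.8%, with median ESC widths of 3597 and 617 bp, beside 2383 and 698 bp. These 9 include the region upstream of Otx2 whose L-EPSC part lay outside the window. The shared regions were narrower than in ESCs at 9 of 14 in D-EPSCs and at 8 of 9 in L-EPSCs, beside 78.2% and 83.2% of all shared regions. H3K4me1 was present at 10 of the 11 ESC regions without H3K27ac in D-EPSCs, beside 64.3% of all such regions, and at 12 of the 16 in L-EPSCs, beside 61.9%.

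**Figure D5:**
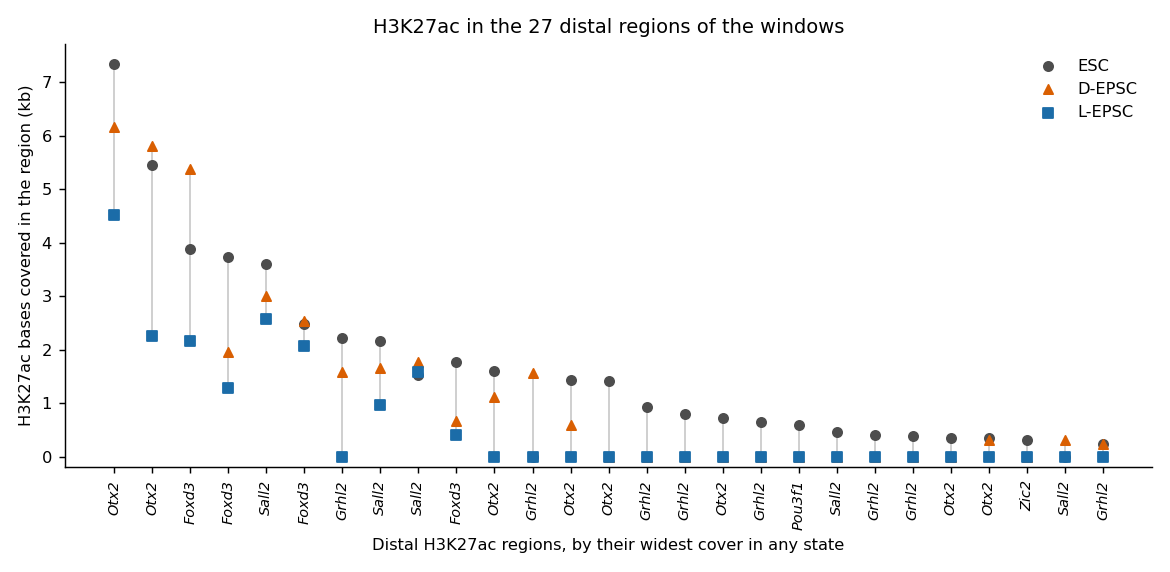
H3K27ac bases (kb) in each of the 27 distal regions of the windows, ordered by the widest cover in any state and named by gene, with circles for ESC, triangles for D-EPSC and squares for L-EPSC. The 9 regions with L-EPSC cover are all among the 10 at the left, and every L-EPSC square to their right is at 0.

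Among distal H3K4me1 peaks of the windows, 16 of 57 (28.1%, exact binomial 95% interval 17.0 to 41.5%) overlapped H3K27ac in ESCs. In D-EPSCs 10 of 50 did (20.0%, 10.0 to 33.7%), and in L-EPSCs 8 of 49 (16.3%, 7.32 to 29.7%). The shares of all distal H3K4me1 peaks were 39.3%, 19.9% and 15.7%. The interval holds the share of all peaks in each state, but it covers counting error only and treats peaks of the same window as independent. It therefore cannot decide whether the windows are like or unlike all peaks, which was not tested. Within the windows, Otx2 accounted for 8 of the 16 in ESCs, and 3 of the 10 in D-EPSCs and 2 of the 8 in L-EPSCs. These counts depend in part on how peaks were joined. At the 3′ end of Otx2, ESCs had distal H3K4me1 peaks of 4746 and 3820 bp. D-EPSCs had a single peak of 14075 bp there, which reached a start site and so was not counted as distal. H3K27ac still covered 6166 bp at that place in D-EPSCs. Foxd3 had 3 in each state.

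Distal H3K4me1 regions found in 1 kind of cell were mostly small. The 57 regions joined over the states included 31 in all 3 states, with a median width of 1841 bp, against 7 in ESCs only (523 bp) and 11 in D-EPSCs only (375 bp). As shares these were 54.4%, 12.3% and 19.3%, beside 45.6%, 17.3% and 7.26% of all distal H3K4me1 regions. Each of the 8 genes had at least 1 region in an EPSC and not in ESCs, as did 54.4% of all genes, and 5 (Otx2, Pou3f1, Sall2, Sox3 and Grhl2) had at least 1 in ESCs only, as did 51.5%. The widest in an EPSC was in an intron of Grhl2 in D-EPSCs, 2067 bp at chr15:37180981-37183047, and the same gene had the widest region of ESCs only, 2200 bp at chr15:37228734-37230933. At Fgf5 a region 38.4 kb downstream of the first base, beyond the gene (chr5:98721651-98722546), had 896 bp for D-EPSCs and 586 bp for L-EPSCs and no ESC peak.

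Related genes were counted in the same windows. Of 25 other formative and primed genes, 23 were found in the annotation. For H3K27ac, 9 of the 20 tested had at most 0.5 times the ESC bases in D-EPSCs and 1 had at least 2 times, with a median log2 ratio of -0.71. The 1, named after its value was seen, was the cadherin gene Cdh2, which had 0.527 and 2.75 kb in ESCs and D-EPSCs and none in L-EPSCs. In L-EPSCs 14 of 19 and 0 of 19 did, with a median of -1.74. The largest differences from ESCs in kb were at Grhl3, a grainyhead factor, with 60.9, 16.8 and 20.6 kb in ESCs, D-EPSCs and L-EPSCs, and at Nodal, a TGF-beta ligand, with 37.9, 13.9 and 9.79 kb. The feedback inhibitor Lefty2 had 31.3, 10.6 and 7.89 kb and the FGF-responsive factor Etv5 55.5, 45.4 and 36.7 kb. For H3K4me1, 0 of 23 passed either limit in D-EPSCs, and 2 of 23 had at most 0.5 times in L-EPSCs, Dnmt3b (21.4 kb in ESCs, 9.32 kb in L-EPSCs) and Etv4 (27.6 and 10.4 kb), which were also named after their values were seen.

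All 15 naive genes were found. For H3K27ac, 8 of the 15 had at most 0.5 times the ESC bases in D-EPSCs and 1 had at least 2 times, with a median of -0.98. That 1 was Nr0b1, named after its value was seen, at 0.586 and 1.49 kb. In L-EPSCs 10 of 14 and 0 of 14 did, with a median of -1.29. Tbx3, a factor of the naive state, had 54.5, 5.42 and 22.0 kb, Tfcp2l1 48.5, 14.8 and 16.7 kb, Klf5 41.4, 17.7 and 10.7 kb, and the epigenetic regulator Prdm14 37.1, 14.5 and 8.16 kb. Their medians thus lay near the medians of all genes, while those of the 5 regulators tested lay above them.

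Of 20 paralogs of the 8 genes, 19 were found. For H3K27ac, 5 of the 10 tested had at most 0.5 times the ESC bases in D-EPSCs and 6 of 10 in L-EPSCs, none had at least 2 times, and the medians were -1.15 and -1.07. Grhl3, Sall4 (46.8, 16.8 and 13.2 kb), Fgf4 (40.5, 21.5 and 19.0 kb) and Sall1 (65.4, 50.3 and 46.6 kb) differed most in kb. For H3K4me1, 5 of 18 had at least 2 times the ESC bases in D-EPSCs and 2 of 18 in L-EPSCs, and 1 (Crx, at 13.9 and 6.81 kb) and 0 had at most 0.5 times. The 5, named after their values were seen, were Zic1 (4.76, 16.1 and 9.98 kb), Zic4 (4.76, 18.5 and 10.3 kb), Pou3f3 (5.47, 12.3 and 10.7 kb), Foxd2 (4.77, 9.87 and 8.26 kb) and Foxd4 (2.44, 5.89 and 4.82 kb), and none of them had H3K27ac in any list. Zic1 and Zic4 are neighbours and their windows overlap.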

How the data were processed

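Per the study's methods and processing notes, the authors aligned ChIP-seq reads to mm9 with Bowtie2 2.3.5, and MACS2 then called broad peaks over the input samples. The deposited lists, 1 per state and mark, hold peak positions in bases and no count, signal or score. The threshold and the pooling of the 2 samples per list are not given in the sources used here, so wider or more numerous peaks may reflect depth or calling as well as chromatin. Positions were set against GENCODE M1 protein-coding genes and the NCBIM37 genome (mm9) and are 1-based. Covered bases were clipped to the windows, overlap was at least 1 bp, and 1 kb was added before log2. The 8 genes and, per gene, the widest distal region of each kind were named by a written rule, and the other regions (those at Zic5, the region upstream of Otx2, the pair downstream of Foxd3 and the promoter peaks of Sall2) after their values were seen. The 8 genes, the lists and the settings were chosen with earlier results of these data known, and the comparisons at the first base and of CpG-rich starts after seeing the data. Groups were taken from the sample labels. No test was run, because each group is 1 list. Tfcp2l1 and Tfap2c were matched by older symbols. Sox4 and Sox1 were not matched. Interval code was tested on simulated data. Python 3.11.15, numpy 2.4.6, scipy 1.17.1 and matplotlib 3.10.9 were used. Upstream sequences of the other 4 genes are not reported here.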

Additional observations from a re-analysis of the deposited data

How the results depend on the processing

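No paired analysis was possible because each state and mark has 1 deposited list, with no column per sample. Gene counts and medians over ESCs, promoter and distal counts, overlap shares and region classes were recomputed under other windows, peak filters, list sizes, promoter limits and overlap rules. L-EPSC over D-EPSC ratios, the sharing of ESC regions, motif shares, related lists and percentiles were not. Under the limits used for labelling, 235 of the recomputed values were called the same, 62 moved and 6 changed sign. These limits were wide, so a value called the same need not be close. The H3K4me1 median in D-EPSCs was called the same at 0.01 with 100 kb on each side, against 0.29 as reported. With 10 kb, the share of distal H3K4me1 peaks with H3K27ac in L-EPSCs was called the same at 8.33%, against 16.3%. Signal strength and read depth are unknown from positions, so a peak near the calling limit cannot be told apart from a real absence.

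With 10 kb on each side, the median log2 ratio over ESCs turned to 0.03 for H3K27ac in D-EPSCs and 0.06 for H3K4me1 in L-EPSCs. Distal peaks there numbered 12, 7 and 3 for H3K27ac and 31, 28 and 24 for H3K4me1 in ESCs, D-EPSCs and L-EPSCs. Distal regions of all 3 states, of ESCs only and of both EPSCs without ESCs then numbered 3, 7 and 0 for H3K27ac and 16, 3 and 1 for H3K4me1. With 50 kb, 1 of 6 genes tested had at most 0.5 times the ESC H3K27ac in D-EPSCs and 5 in L-EPSCs. Beside these stood 62.9% and 80.9% of all genes tested. At least 2 times was reached by 0 in either, against 4.30% and 1.73%. ESCs had 38 distal H3K27ac peaks and 20 regions were in ESCs only. With 100 kb those gene counts were again 1, 5 and 0 of 6. The shares of all genes were 63.3% and 82.0% for at most 0.5 times, and 4.33% and 1.74% for at least 2 times. The H3K27ac median in L-EPSCs was -1.50, against -1.58 over all genes. At least 2 times the ESC H3K4me1 was seen at 1 of 8 genes in L-EPSCs, beside 8.32% of all genes. Distal peaks were then 68, 34 and 23 for H3K27ac and 133, 130 and 110 for H3K4me1, with 17 and 43 H3K27ac regions in all states and in ESCs only, and 74, 21 and 8 H3K4me1 regions in every state, in ESCs alone and in the EPSCs alone. Wider windows hold more peaks by construction.

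With peaks of at least 500 bp, 1 gene had promoter H3K27ac in L-EPSCs. At least 2 times the ESC H3K4me1 was seen at 1 of 7 genes in D-EPSCs, beside 8.97% of all genes. In ESCs only there were 6 H3K27ac regions, and 1 H3K4me1 region was in both EPSCs only. With lists of equal number of peaks, 1 gene had promoter H3K27ac in ESCs, which had 13 distal peaks, and 1 region was in ESCs only. With lists of equal covered bases, 4 of 5 genes had at least 2 times the ESC H3K27ac in D-EPSCs and 3 of 4 in L-EPSCs. The shares of all genes were 61.7% and 58.9%. In L-EPSCs 0 had at most 0.5 times, beside 16.4% of all genes. The medians turned to 3.16 and 2.78, against 1.19 and 1.18 over all genes. The H3K4me1 median in L-EPSCs was 0.33, against 0.11. ESCs then had H3K27ac at 0 promoters and 1 distal peak, D-EPSCs 10 distal peaks, and distal H3K4me1 peaks were 23 in ESCs and 31 in D-EPSCs. H3K27ac overlapped 8.70% of distal H3K4me1 peaks in ESCs. Regions of all states, ESCs only and both EPSCs only numbered 1, 0 and 6 for H3K27ac and 15, 2 and 12 for H3K4me1. That setting keeps 3725 ESC peaks of H3K27ac, the widest ones.

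Without peaks at neighbouring start sites the H3K4me1 median in L-EPSCs was 0.03. With a factor of 1.5, 1 of 5 genes passed the lower limit for H3K27ac in D-EPSCs and 1 of 8 that for H3K4me1 in L-EPSCs. Shares of all genes were not computed for that factor. A promoter limit of 500 bp gave 1 H3K27ac region of both EPSCs only, the 5′ end alone gave 1 gene with promoter H3K27ac in L-EPSCs, joining peaks within 1 kb gave 7 H3K27ac regions of ESCs only, and an overlap of at least 50% gave 6.12% in L-EPSCs. The numbers of genes with H3K4me1 over the first base, 2, 6 and 7, were the same with peaks of at least 500 bp and with lists of equal number or equal covered bases. The causes of these shifts were not tested.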
